A study of Mus musculus with 2 samples.

Results

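The glucocorticoid-responsive genes described here were 8 of the 27998 genes counted in immune cells of the mouse brain. They were *Nr3c1*, *Fkbp5*, *Tsc22d3*, *Sgk1*, *Ddit4*, *Per1*, *Txnip* and *Klf9*, found by their symbols. They were chosen by name after *Tsc22d3* had shown a lower level in twi CD8+ T cells of these same libraries, so its values there chose the set and are given as a description. The CD45+ cells came from hemibrains of untreated C57Bl/6 mice at p21, either WT (galc+/+) or twi (galc-/-), which lack galactosylceramidase in every cell and model globoid cell leukodystrophy. For each genotype, cells of 2 to 3 animals were combined and sequenced together as 1 library with the 10x Genomics 3′ chemistry, in which each captured transcript carries a unique molecular identifier (UMI). The animals of a pool carried no tag in the deposited counts. With 1 library per genotype there was no replicate error and no test was possible. Every interval below is a 95% interval that covers counting error alone, and none measures the spread between animals.

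Glucocorticoids bind the receptor encoded by *Nr3c1*, which is held by heat shock proteins and co-chaperones in the cytoplasm and moves to the nucleus with its ligand. There it binds response elements and raises the transcription of genes such as *Tsc22d3*, *Fkbp5*, *Per1*, *Sgk1*, *Ddit4* and *Klf9*, several of which are also set by other signals. *Tsc22d3* and *Txnip* are in addition high in resting lymphocytes, and *Txnip* responds to glucose. No hormone was measured, so the levels below are levels of transcripts and not of hormone action.

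RefSeq start sites on GRCm38.p6, the build mm10 named in the submitters' processing notes, gave 15 windows for 7 members, each running from 250 bases before to 50 bases after a start. A window is shown for the kinase gene whose ratio between genotypes was highest, for the gene with a glucose-type element, and for *Tsc22d3*. Capitals mark the palindromic glucocorticoid response element (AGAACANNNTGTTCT) in *Sgk1* and a carbohydrate response element (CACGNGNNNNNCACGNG) in *Txnip*, each searched on both strands, and the *Tsc22d3* window held neither.
Sgk1, chr10:21993640-21993939, plus strand: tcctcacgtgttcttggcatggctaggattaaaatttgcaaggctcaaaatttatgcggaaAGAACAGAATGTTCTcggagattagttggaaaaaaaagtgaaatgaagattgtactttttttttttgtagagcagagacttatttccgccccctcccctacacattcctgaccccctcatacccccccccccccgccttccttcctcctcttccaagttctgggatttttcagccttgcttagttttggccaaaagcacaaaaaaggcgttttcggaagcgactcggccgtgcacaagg
Txnip, chr3:96557707-96558006, plus strand: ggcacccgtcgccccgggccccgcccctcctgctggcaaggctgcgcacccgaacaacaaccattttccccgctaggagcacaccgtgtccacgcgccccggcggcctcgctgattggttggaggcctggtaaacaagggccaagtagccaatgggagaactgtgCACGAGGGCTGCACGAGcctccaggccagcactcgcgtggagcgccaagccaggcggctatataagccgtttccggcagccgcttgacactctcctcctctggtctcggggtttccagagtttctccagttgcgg
Tsc22d3, chrX:140542619-140542918, minus strand: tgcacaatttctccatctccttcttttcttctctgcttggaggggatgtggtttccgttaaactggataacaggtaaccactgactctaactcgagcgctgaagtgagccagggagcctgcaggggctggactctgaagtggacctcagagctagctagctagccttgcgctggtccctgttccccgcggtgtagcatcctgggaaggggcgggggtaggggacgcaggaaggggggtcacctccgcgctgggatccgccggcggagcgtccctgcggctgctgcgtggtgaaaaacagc
The full palindrome was in 3 of all 32851 windows (0.00913%), and 1 of these was the *Sgk1* window, 189 bases before its start. The carbohydrate element was in 16 windows (0.0487%). The inner letters of the palindrome alone (ACANNNTGT), which overlap it, were in 6.85% of all windows, and the E-box CACGTG, the element of clock factors, was in 7.15%. Of the 15 windows, an E-box lay in 3, 166 bases before a start of *Per1*, 169 before that of *Fkbp5* and 246 before that of the *Sgk1* window shown. The inner letters lay in a further *Sgk1* window and in that of *Txnip*, 127 and 170 bases before the start. None of the 3 *Tsc22d3* windows held any of these 4 motifs. A match is a run of letters, and its absence from so short a window says nothing about binding.

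The cells were sorted into classes by the UMIs of marker genes. After barcodes with more than 15% mitochondrial UMIs were removed, the WT library held 1271 cells with a median of 2222 UMIs and the twi library 1207 cells with a median of 3182, and no cell barcode was shared. Naive-like CD8 T cells, with more UMIs of naive markers such as *Ccr7* and *Lef1* than of *Ccl5*, *Nkg7*, *Cxcr6* and *Gzmb*, numbered 51 in WT and 50 in twi. Effector-like CD8 T cells, with the reverse balance, numbered 51 and 379. The other classes held 49 and 71 CD4 T-like, 68 and 63 NK-like, 525 and 159 B-like, 224 and 63 neutrophil-like, and 36 and 42 monocyte-like cells in WT and twi. *Cd3e* was seen in 74.5% and 88.9% of effector-like cells and in 0% of NK-like cells, whose gate had removed it, and *Cd79a* was seen in 99.6% and 98.7% of B-like cells. No class was given to 19.3% of WT and 29.6% of twi cells. Doublets were not called.

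The pools also differed in sex. Transcripts of *Xist* without any Y-linked transcript were seen in 0% of WT and 45.4% of twi cells, and Y-linked transcripts without *Xist* in 38.3% and 17.2%. Genotype and sex of the pooled animals therefore cannot be told apart in the pooled values, and *Tsc22d3* itself lies on chromosome X. Values for cells with Y-linked UMIs and no *Xist* are given beside the main results.

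*Nr3c1*, the glucocorticoid receptor, was at a low level in each of the 7 classes. Its level, in UMIs per 1000000 UMIs of the class (CPM), was 57.7 in WT and 79.9 in twi B-like cells, 55.2 and 69.8 in CD4 T-like cells, 42.6 and 52.7 in naive-like CD8 T cells, and 51.8 and 38.3 in neutrophil-like cells. In effector-like CD8 T cells it was 25.04 CPM in WT (6 UMIs) and 46.6 in twi (86 UMIs), a ratio of twi over WT of 1.86 (0.820 to 5.21). In NK-like cells it was 49.1 and 94.9 CPM, a ratio of 1.93 (0.878 to 4.57). Among cells with Y-linked UMIs the ratios were 2.29 (0.410 to 23.2) and 2.93 (0.817 to 13), from 2 and 4 WT UMIs. All these intervals include 1. Within twi, effector-like CD8 T cells stood at 0.491 (0.304 to 0.823) of the NK-like level, while the classes next to each other at the head of the order did not differ beyond counting error. The share of NK-like cells with an *Nr3c1* UMI was 13.2% in WT and 30.2% in twi, or 5.10% and 10.8% when each cell was thinned to 1000 UMIs. Monocyte-like cells held 27.1 and 42.3 CPM. Cells gated on markers such as *C1qa*, outside the 7 classes, held 148.3 CPM in WT (8 UMIs) and 51.0 in twi (6 UMIs). Their ratio of twi over WT was 0.344 (0.0984 to 1.13), with an interval that includes 1.

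*Fkbp5*, a co-chaperone that lowers the receptor's affinity for its ligand, was sparse. Among the 7 classes its value was highest in NK-like cells, with 54.0 CPM in WT and 38.8 in twi, and lowest in B-like cells, with 4.65 and 10.7 CPM, while no class differed beyond counting error from the next in that order. In effector-like CD8 T cells 9 WT UMIs and 33 twi UMIs gave 37.6 and 17.9 CPM, a ratio of 0.476 (0.223 to 1.13). The interval includes 1, as does that of the 6 and 5 UMIs of cells with Y-linked UMIs, 0.637 (0.154 to 2.51). An *Fkbp5* UMI was seen in 9.80% of WT and 8.44% of twi effector-like cells, and in 0.952% of WT B-like cells, the class with the least of it, where the median depth was 1994 UMIs against 4079 and 4248.

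*Tsc22d3*, which encodes the anti-inflammatory leucine zipper protein GILZ, was the member with the most UMIs, 2161 in WT and 1834 in twi cells. B-like cells held the highest level in both libraries, 999.5 CPM (940.6 to 1061) in WT and 1407 (1289 to 1532) in twi, and they carried 49.7% of all its WT UMIs. Behind them in WT came CD4 T-like (570), monocyte-like (541.8), NK-like (525.4) and naive-like CD8 T cells (522.1 CPM), in which neighbours did not differ beyond counting error. Effector-like CD8 T cells (346.5) and neutrophil-like cells (303.6 CPM) were lowest and not distinguishable from each other. In twi the order was B-like, naive-like CD8 T (863.6), monocyte-like (578.1), CD4 T-like (463.9), neutrophil-like (402.1), NK-like (280.4) and effector-like CD8 T cells (169 CPM). Only the step from monocyte-like to CD4 T-like and that from CD4 T-like to neutrophil-like cells had intervals that include 1.

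**Figure D1:**
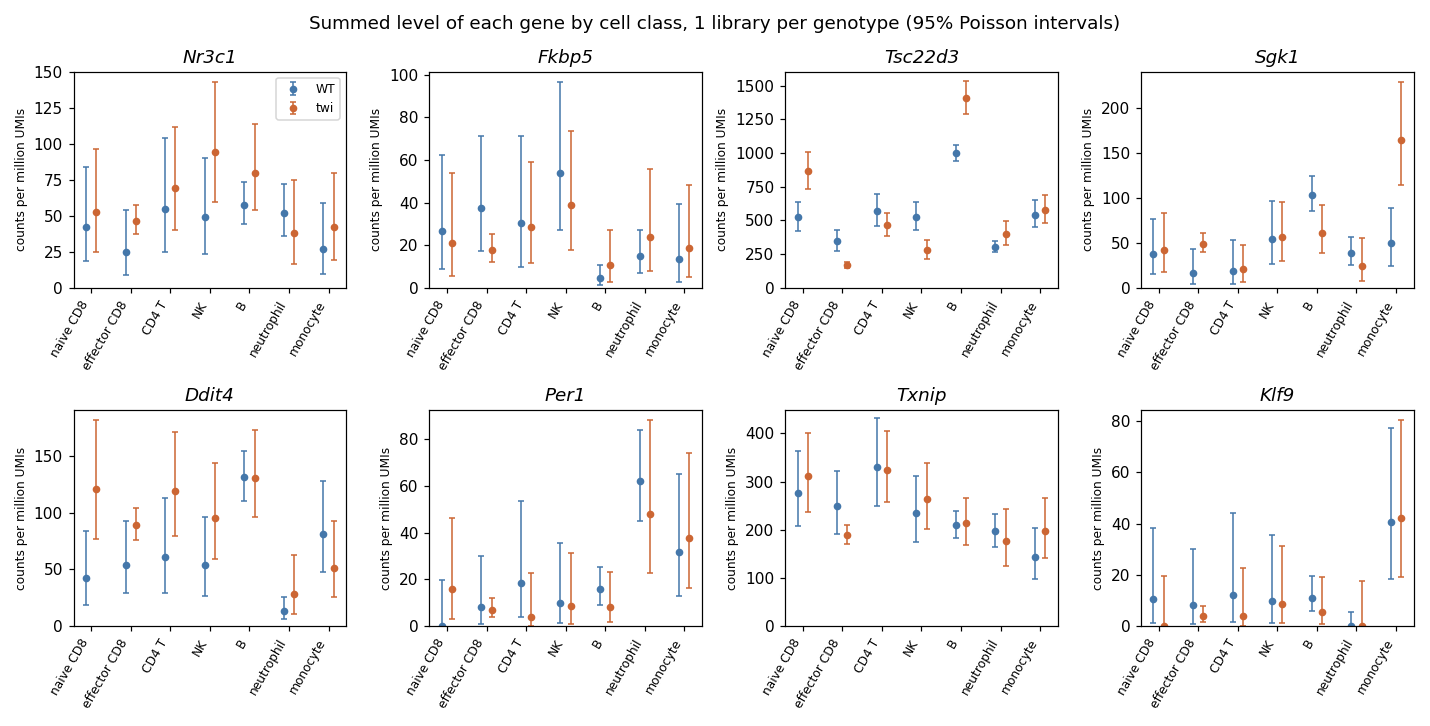
Level of each of the 8 genes (vertical axis, CPM summed over the cells of a class; scales differ between panels) in 7 cell classes of the WT and twi libraries, with 95% Poisson intervals of counting error. *Tsc22d3* was highest in B cells of both libraries, *Per1* in neutrophils and *Klf9* in monocytes, and the twi effector CD8 T cells had the lowest *Tsc22d3* level, 169 CPM.

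The distance between effector-like and naive-like CD8 T cells was present within each library. *Tsc22d3* in effector-like cells was 0.664 of the naive-like level in WT (0.489 to 0.898) and 0.196 in twi (0.162 to 0.238). With stricter gates, which kept few cells, the ratios were 0.197 and 0.131, so the distance between the libraries depended on the gates. In WT, 9.47% of the genes tested were at least 1.5-fold lower in effector-like than in naive-like cells, and in twi 18.1%. Both classes were gated on genes of resting and of effector cells, so this distance is a description.

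Between genotypes the direction of *Tsc22d3* depended on the class. It was higher in twi in naive-like CD8 T cells, with 98 UMIs in WT and 164 in twi and a ratio of 1.65 (1.28 to 2.15), although the log2 ratio of 0.72 became -0.37 in the 7 WT and 4 twi cells that passed stricter gates. It was also higher in B-like cells at 1.41 (1.27 to 1.56) and in neutrophil-like cells at 1.32 (1.01 to 1.71). The median of all genes in neutrophil-like cells lay at a log2 ratio of 0.11. *Tsc22d3* lay at 0.41 there, or 0.30 when centred on that median. *Tsc22d3* was lower in twi in effector-like CD8 T cells, from 83 UMIs (346.5 CPM) to 312 UMIs (169 CPM), a ratio of 0.488 (0.382 to 0.629), and in NK-like cells at 0.534 (0.386 to 0.733). In the NK-like class the effector markers summed to 28309 CPM in WT and 17043 in twi and the naive markers to 481.2 and 258.9 CPM, and their part in that ratio was not tested. Ratios of 0.814 (0.613 to 1.08) in CD4 T-like and 1.07 (0.823 to 1.38) in monocyte-like cells did not leave out 1. The CD4 T-like class also differed in its markers. Effector markers summed there to 404.5 CPM in WT and 3424 in twi, and naive markers to 1471 and 927.9 CPM. Their part in the CD4 T-like ratios of the members was not tested. Over all cells the ratio was 0.663 (0.622 to 0.706), beside a B-like share of 41.3% of WT and 13.2% of twi cells. The differences between classes were not tested, since each class had 1 library per genotype.

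Counted by cell, a *Tsc22d3* UMI was present in 68.6% of WT and 38.8% of twi effector-like CD8 T cells, and in 66.7% and 82.0% of naive-like ones. Thinned to 1000 UMIs a cell, the shares were 29.2% and 13.7% of effector-like and 38.3% and 54.4% of naive-like cells. At that depth 1 WT and 5 twi effector-like cells and no naive-like cell were left out. At least 3 UMIs were found in 23.5% of WT and 9.76% of twi effector-like cells, while 31.4% and 61.2% had 0 UMIs. No class lacked the gene, so no class gave a background share. B-like cells were the richest source of *Tsc22d3*. Their markers stood in the effector-like class at 1.14% of the B-like level in WT and 0.407% in twi. These shares would bring 11.4 and 5.73 CPM of *Tsc22d3*. In naive-like CD8 T cells the shares were 1.11% and 2.15%, which would bring 11.05 and 30.2 CPM. Barcodes that passed the B gate were not counted as T cells, so the gates themselves kept these shares low. The part of B-like cells in the *Tsc22d3* ratios was therefore not tested.

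**Figure D2:**
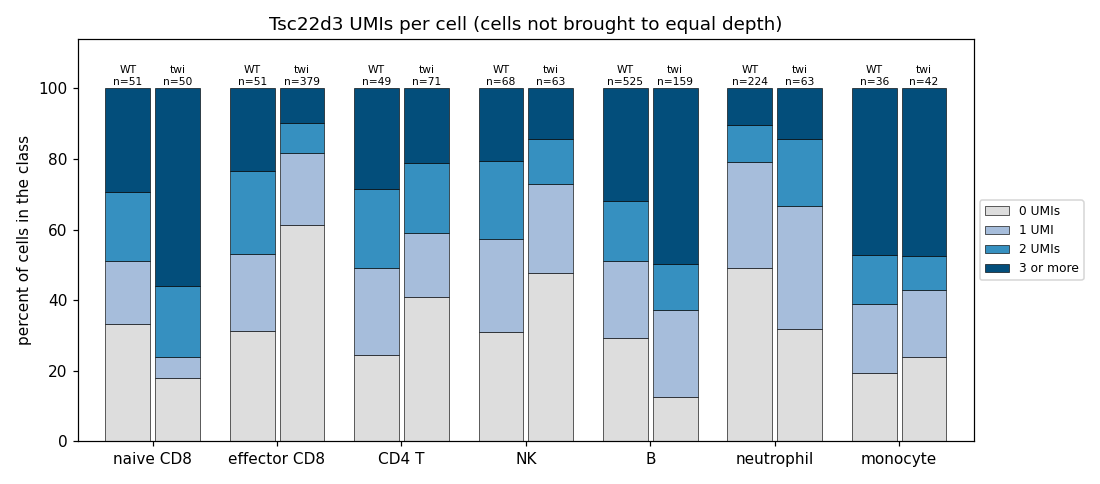
Share of cells (vertical axis, percent of the class) with 0, 1, 2 or at least 3 *Tsc22d3* UMIs in each class of the WT and twi libraries, with the number of cells above each bar and cells at their own depth. Effector CD8 T cells with 0 UMIs made up 31.4% in WT and 61.2% in twi, whereas those of naive CD8 T cells made up 33.3% and 18%.

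The lower level in twi effector-like cells was not seen among cells with Y-linked UMIs and no *Xist*. These held 276.8 CPM in WT (42 UMIs in 26 cells) and 302.3 CPM in twi (60 UMIs in 46 cells), a ratio of 1.09 (0.724 to 1.66). In the same twi library the 234 effector-like cells with *Xist* and no Y-linked UMI held 135.6 CPM (165 UMIs), which was 0.449 (0.332 to 0.614) of the level of the twi cells with Y-linked UMIs. The whole WT class held 346.5 CPM, so the WT and the twi cells with Y-linked UMIs both had lower values than that class. The 25 WT cells with neither transcript held 466.8 CPM, above the 276.8 CPM of those with a Y-linked UMI. The 90 twi cells with neither held 173 CPM. The marker genes moved too. Naive markers summed to 678.8 CPM in the WT cells with Y-linked UMIs, 413.1 CPM in the twi cells with them and 281.1 CPM in the twi cells with *Xist*. Effector markers summed to 7315, 13834 and 8408 CPM in the same order, and cells high in interferon-stimulated genes made up 19.2%, 45.7% and 56.0%. The part of these genes, of sex and of single animals in the difference was not tested.

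Other classes did not share one pattern. In NK-like cells *Tsc22d3* was 545.9 CPM in WT cells with Y-linked UMIs, 362.2 CPM in twi cells with them and 215.8 CPM in twi cells with *Xist*. The ratio of the first pair was 0.663 (0.393 to 1.09). Monocyte-like cells held 465.7, 857.3 and 399.3 CPM in the same order, so the twi cells with Y-linked UMIs were highest, at 1.84 (1.26 to 2.68) of the WT value, although the pooled ratio was near 1. B-like cells held 929.9, 1149 and 1206 CPM, and the *Xist* and Y-linked cells of twi were at a ratio of 1.05 (0.810 to 1.37). In naive-like CD8 T cells the values were 537.7, 674.1 and 926.4 CPM, from 22, 9 and 17 cells, and the ratio of the first pair was 1.25 (0.755 to 2.05). That ratio was 1.24 (0.985 to 1.54) in B-like, 1.20 (0.527 to 2.43) in neutrophil-like and 0.835 (0.501 to 1.35) in CD4 T-like cells. Among cells with Y-linked UMIs, monocyte-like cells were thus the only class of the 7 whose *Tsc22d3* interval left out 1. That ratio came from 19 WT and 8 twi cells, and 1 cell held 13 of the 71 WT UMIs and another 13 of the 50 twi UMIs. The interval does not cover such spread between cells.

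**Figure D3:**
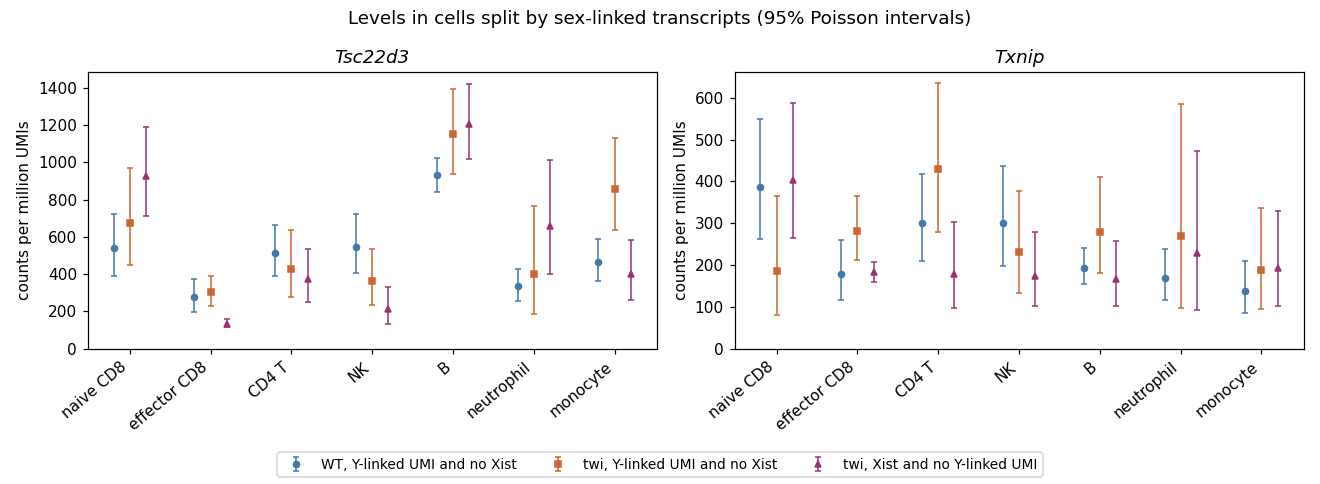
Levels of *Tsc22d3* (left) and *Txnip* (right; vertical axes, CPM) in each class for WT cells with a Y-linked UMI and no Xist, twi cells with the same, and twi cells with Xist and no Y-linked UMI, with 95% Poisson intervals of counting error. In effector CD8 T cells the WT and twi cells with Y-linked UMIs overlapped at 276.8 and 302.3 CPM of *Tsc22d3*, and the twi cells with Xist were lower, at 135.6 CPM.

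Effector-like cells were also divided by transcripts that differed between the libraries. Of the 51 WT and 379 twi cells, 6 and 209 lay above the median of 8 interferon-stimulated genes. Below the median *Tsc22d3* was 377.5 CPM in WT and 206.7 CPM in twi, and above it 1 WT UMI gave 44.7 CPM against 130.4 CPM in twi, too few WT cells for a comparison. Within twi the cells above the median held 0.631 (0.498 to 0.797) of the level of those below. Naive markers summed to 747.2 CPM in WT and 292.5 CPM in twi effector-like cells. Among cells without any naive UMI, 14 WT cells held 182 CPM and 180 twi cells 97.9 CPM, a ratio of 0.538 (0.276 to 1.17), whose interval includes 1.

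Stage mattered in B-like and neutrophil-like cells. B-like cells with the mature markers *Fcer2a* or *Cd22* held 1455 CPM of *Tsc22d3* in WT and 1962 CPM in twi, above the 933.9 and 1235 CPM of cells with early markers, and the ratio of twi over WT was 1.35 (1.06 to 1.72) and 1.32 (1.16 to 1.503) in the respective stages. Neutrophil-like cells rich in the secondary granule transcripts *Camp*, *Ngp* and *Ltf* held 242.5 and 221 CPM, and the others held 568.3 and 738.1 CPM. Granule-rich cells numbered 141 of the WT and 26 of the twi neutrophil-like cells. Neither stage had a ratio whose interval left out 1, at 0.911 (0.592 to 1.36) in granule-rich cells and 1.30 (0.895 to 1.87) in the others.

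*Sgk1*, a kinase of ion transport and cell survival, had its highest level outside the 7 classes, in cells gated on markers such as *C1qa*, *C1qb* and *C1qc*, transcripts of microglia and related macrophages. There 22 WT cells held 667.3 CPM and 23 twi cells 476.2 CPM, a ratio of 0.714 (0.461 to 1.12). Of the 56 twi UMIs, 20 lay in 1 cell, a spread between cells that the interval does not cover. An *Sgk1* UMI was seen in 68.2% of these cells in WT and 47.8% in twi, or 42.7% and 25.1% at 1000 UMIs. Monocyte-like cells held 49.7 CPM in WT (11 UMIs) and 164.5 CPM in twi (35 UMIs), a ratio of 3.31 (1.64 to 7.23). The *C1q* cells' own markers stood in monocyte-like cells at 0.484% and 0.936% of their level, which would bring 3.23 and 4.46 CPM of *Sgk1*. Barcodes that passed the *C1q* gate were not counted as monocyte-like, so the gates themselves kept these shares low. The part of *C1q* cells in the monocyte-like *Sgk1* ratio was therefore not tested. Of the 35 twi UMIs, 14 came from cells with *Xist* (207.1 CPM) and 2 from cells with Y-linked UMIs (34.3 CPM), beside 3 UMIs (19.7 CPM) in WT cells with Y-linked UMIs.

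Effector-like CD8 T cells had more *Sgk1* in twi. The level was 16.7 CPM in WT, from 4 UMIs, and 49.3 CPM in twi, from 91 UMIs, a ratio of 2.95 (1.11 to 11.1), and it was 3.06 (0.986 to 12.6) among cells with Y-linked UMIs. Effector-like cells with an *Sgk1* UMI made up 7.84% and 16.9%, or 1.83% and 5.19% at 1000 UMIs. In CD4 T-like cells, the class with the least *Sgk1* in twi, the shares at 1000 UMIs were 2.41% and 1.98%, from 3 and 5 UMIs. The WT share in effector-like cells was not above the WT share of that class. Each class held *Sgk1* UMIs, so none gave a background share. B-like cells went the other way, from 103.3 to 61.3 CPM, a ratio of 0.593 (0.361 to 0.936), or 0.784 (0.270 to 1.87) among cells with Y-linked UMIs. The early B-like stage gave a ratio of 0.588 (0.335 to 0.975), and the mature stage had only 4 and 3 UMIs. *Sgk1* and *Tsc22d3*, whose transcription the same receptor can raise, thus lay on opposite sides of 1 in effector-like CD8 T cells, though not among those with Y-linked UMIs, and in B-like cells.

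*Ddit4* encodes an inhibitor of the growth kinase complex mTORC1 and also responds to hypoxia and to lack of nutrients. Its value was highest in B-like cells, at 131.2 CPM in WT and 130.6 in twi, and low in neutrophil-like cells, at 13.3 and 28.7 CPM. The B-like level did not differ beyond counting error from the next, monocyte-like in WT (81.3 CPM) and naive-like CD8 T in twi (121.1 CPM). In each of the 4 T and NK classes the twi value was the higher. It was 42.6 and 121.1 CPM in naive-like CD8 T cells, a ratio of 2.84 (1.23 to 7.35), and 54.3 and 89.4 CPM in effector-like ones, a ratio of 1.65 (0.937 to 3.16). CD4 T-like cells held 61.3 and 119.1 CPM, a ratio of 1.94 (0.920 to 4.47), and NK-like cells 54.0 and 94.9 CPM, a ratio of 1.76 (0.817 to 4.01). Of these intervals, that of naive-like cells left out 1, and 7 of its 23 twi UMIs lay in 1 cell. Among cells with Y-linked UMIs and no *Xist* the ratio was 0.465 (0.00944 to 4.70) in naive-like, 1.10 (0.437 to 2.93) in effector-like, 4.01 (1.07 to 18.2) in CD4 T-like and 0.867 (0.0724 to 7.57) in NK-like cells, each from at most 13 UMIs a library.

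*Per1*, a repressor of the circadian clock with a promoter that the receptor binds, had its highest level in neutrophil-like cells, at 62.2 CPM in WT (42 UMIs) and 47.9 CPM in twi (10 UMIs), a ratio of 0.770 (0.344 to 1.56). Among cells with Y-linked UMIs 7 and 4 UMIs gave a ratio of 4.97 (1.07 to 19.5). The 4 twi UMIs came from 2 of 6 cells, and 1 cell held 3 of them. Those 6 cells also held NK markers at 1165 CPM and effector markers at 1971 CPM, against 15.45 and 61.81 CPM in the WT cells. The interval does not cover such spread between cells, and the part of these markers in the ratio was not tested. Monocyte-like cells followed at 31.6 and 37.6 CPM, and the neutrophil-like level was 1.97 (0.876 to 5.19) and 1.27 (0.452 to 3.71) times theirs in WT and twi, so the classes did not differ beyond counting error. Of all *Per1* UMIs, 43.8% in WT and 17.2% in twi lay in neutrophil-like cells. Cells poor in granule transcripts held 173.7 and 95.7 CPM, against 36.5 and 22.1 CPM in granule-rich cells. The lymphoid classes had 0 to 17 UMIs in a library. Naive-like CD8 T cells of WT had 0 UMIs, which allows up to 16.0 CPM, and those of twi had 3.

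*Txnip*, an inhibitor of thioredoxin and of glucose uptake, had ratios with intervals that include 1 in each of the 7 classes. CD4 T-like cells were at the head of both orders, with 331 CPM in WT and 324.3 CPM in twi. Naive-like CD8 T cells came next at 277 and 310.7 CPM, and no class differed beyond counting error from the next in either order. B-like cells held 209.4 and 213.2 CPM, a ratio of 1.02 (0.779 to 1.32). In effector-like CD8 T cells, 60 and 350 UMIs gave 250.4 and 189.6 CPM, a ratio of 0.757 (0.574 to 1.01). Within twi, effector-like cells stood at 0.610 (0.462 to 0.818) of the naive-like level, and within WT at 0.904 (0.613 to 1.34). Split by sex-linked transcripts, effector-like cells held 177.9 CPM in WT cells with Y-linked UMIs, 282.1 CPM in twi cells with them and 182.5 CPM in twi cells with *Xist*. The twi cells with Y-linked UMIs were the highest of the 3 groups, and those with *Xist* stood at 0.647 (0.481 to 0.884) of them. Granule-poor neutrophils held more *Txnip* than granule-rich ones, by a ratio of 4.53 (3.18 to 6.46) in WT and 7.95 (3.42 to 21.4) in twi. *Tsc22d3* was higher in the granule-poor cells as well, and so was *Per1* in WT. In twi the *Per1* ratio of 4.33 (0.988 to 25.9), from 7 and 3 UMIs, had an interval that includes 1. Neutrophil markers took 469833 and 473728 CPM of granule-rich WT and twi cells, and 315558 and 236035 CPM of the others. Their part in these ratios was not tested. Outside the 7 classes, in the cells with *C1q* transcripts, *Txnip* was 537.5 CPM in WT (29 UMIs) and 161.6 CPM in twi (19 UMIs), a ratio of 0.301 (0.159 to 0.555), and *Tsc22d3* was 444.8 and 204.1 CPM, a ratio of 0.459 (0.2495 to 0.844). The 22 WT and 23 twi cells behind these values differed in their markers too, with *C1qa* seen in 86.4% of them in WT and 69.6% in twi, at 9638 and 6412 CPM. Their median depth was 2451 and 3829 UMIs. A *Tsc22d3* UMI was seen in 40.9% of them in WT and 47.8% in twi, and 1 cell held 7 of the 24 twi UMIs. The *C1q* values were not split by sex-linked transcripts, and genotype and sex cannot be told apart in them.

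*Klf9*, a zinc finger repressor induced by steroid and thyroid hormones, had its highest level in monocyte-like cells, with 9 UMIs in each library, 40.6 CPM in WT and 42.3 CPM in twi. These were 23.1% and 21.4% of its UMIs, while B-like cells held 30.8% in WT and unassigned cells 50% in twi. In WT the monocyte-like level did not differ beyond counting error from the next, that of CD4 T-like cells at 12.3 CPM. In twi it lay above the next, that of NK-like cells at 8.63 CPM, with an interval that left out 1. Neutrophil-like cells had 0 UMIs in 224 WT and 63 twi cells, which allows up to 4.44 and 14.4 CPM. Other classes held 0 to 12 UMIs a library, and no class reached the 25 UMIs set for a comparison of libraries.

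In effector-like CD8 T cells 6 of 8 members had at least 25 UMIs. Of these, 3 were at least 1.5-fold higher in twi (*Nr3c1*, *Sgk1*, *Ddit4*) and 2 lower (*Tsc22d3*, *Fkbp5*), beside 19.8% higher and 12.1% lower among 6573 genes. Their median log2 ratio was 0.13 and that of all genes 0.05. Naive-like CD8 T cells had 2 of 3 members higher and 0 lower, beside 10.6% and 6.81% of 1806 genes. NK-like cells had 2 of 4 higher and 1 lower (9.55% and 13.1% of 2544 genes), and CD4 T-like cells 1 of 4 higher and 0 lower (11.7% and 9.56% of 2176 genes). In B-like cells 0 of 5 were higher and 1 lower (7.55% and 11% of 6102 genes), in neutrophil-like cells 0 of 5 either way (17.3% and 10.4% of 2598 genes), and in monocyte-like cells 1 of 4 higher and 1 lower (9.55% and 15.4% of 2441 genes). With so few members in each class no direction over the members can be read from these counts. *Tsc22d3* stood above 3.48% of all genes by its log2 ratio in effector-like CD8 T cells, 4.28% in NK-like and 25.6% in CD4 T-like cells. It stood above 62.9% in monocyte-like, 72.9% in neutrophil-like, 89.5% in B-like and 93.5% in naive-like CD8 T cells. Its lower level in twi CD8 T cells had chosen the set, so the effector-like rank is a description.

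**Figure D4:**
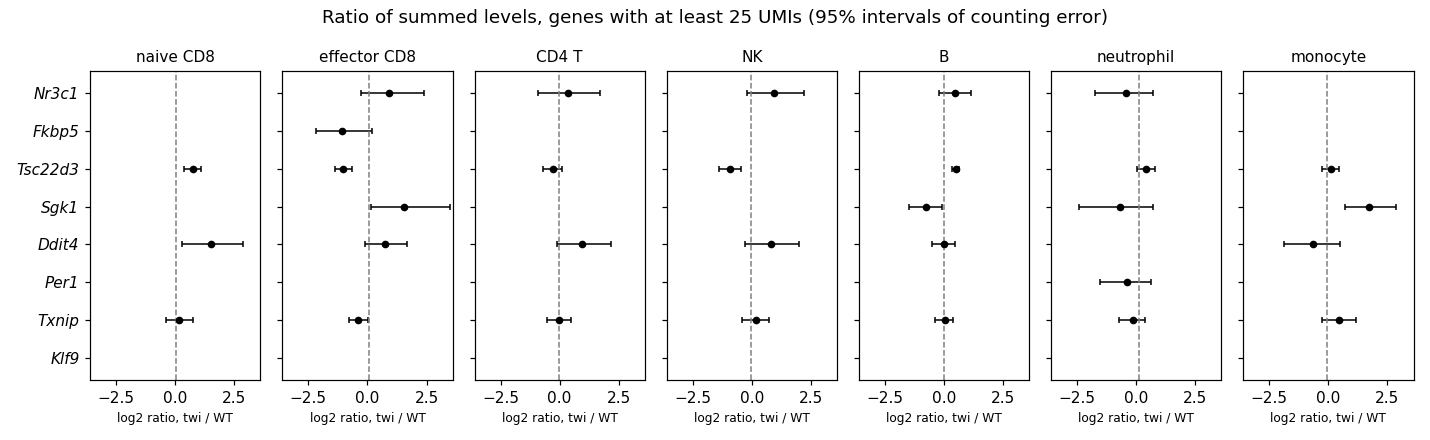
Log2 ratio of twi over WT (horizontal axes) for each member with at least 25 UMIs over both libraries, in 7 cell classes, with 95% intervals of counting error; the dashed line is the median of all genes tested in that class. *Tsc22d3* lay right of the line in naive CD8 T and B cells and left of it in effector CD8 T and NK cells, and *Sgk1* lay right of it in effector CD8 T cells and monocytes and left of it in B cells.

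The wider pathway was read from lists of genes that are no members. Each count below stands beside the 19.8% higher and 12.1% lower among all genes of effector-like CD8 T cells. Values of listed genes are given without the split by sex-linked transcripts, and genotype and sex cannot be told apart in them. Of 12 partners of the receptor, 10 could be compared in effector-like CD8 T cells, with 0 at least 1.5-fold higher and 1 lower, the coactivator *Ncoa2*, whose interval includes 1. The chaperone *Hsp90ab1* was 1407 CPM in WT and 1475 in twi, with a ratio of 1.05 (0.936 to 1.18). Of 15 other glucocorticoid-induced genes counted in the files, 9 could be compared there, with 2 higher and 3 lower. Among them *Il7r*, the interleukin-7 receptor of resting and memory T cells, was 350.6 CPM in WT and 125.1 in twi, with a ratio of 0.357 (0.277 to 0.464). *Dusp1*, a phosphatase of stress kinases, was at 1.35 (0.941 to 2.01) and *Nfkbia*, the inhibitor of NF-kappa-B, at 0.908 (0.699 to 1.20). The median log2 ratio of the list was -0.15, beside 0.05 for all genes and -1.04 for *Tsc22d3*.

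Genes of other inputs were counted in the same way, again without the split by sex-linked transcripts. Of 6 genes linked to Foxo1 in resting lymphocytes, 4 were lower in twi effector-like cells and 0 higher. *Klf2*, a factor of quiescence and lymphocyte exit, was 1549 CPM in WT and 677.5 in twi, with a ratio of 0.438 (0.389 to 0.493), and *S1pr1*, the exit receptor, 121 and 55.2 CPM, a ratio of 0.456 (0.300 to 0.715). The list's median log2 ratio was -0.86 in effector-like and -0.07 in naive-like CD8 T cells. These genes stood beside the naive markers named above, which were also lower in the twi class, and their part in the *Tsc22d3* difference was not tested. Of 11 immediate early genes that respond to tissue dissociation, 10 could be compared, with 0 higher and 3 lower, among them *Fos* at 601.1 and 252.9 CPM, a ratio of 0.421 (0.348 to 0.511). *Jun*, at 1.05 (0.873 to 1.27), and the heat shock gene *Hspa1a*, at 1.01 (0.894 to 1.14), stayed near 1. Clock genes could be compared for 3 of 11, with 2 higher, among them the repressor *Bhlhe40* at 2.76 (1.04 to 10.3) from 4 WT UMIs. Of 6 thioredoxin and arrestin genes 4 could be compared, 1 of them higher, and of 7 genes of the integrated stress response 4, with 2 higher. Intervals of these last 3 genes include 1.

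Across the 14 sums of 7 classes and 2 libraries, the genes whose level was most like that of *Tsc22d3* were *Snx2*, *Tax1bp1*, *Tnfrsf13b*, *Arl5c* and *Cytip*, with Pearson's r of 0.81, 0.80, 0.79, 0.78 and 0.77 among 2610 genes, on log2(CPM + 10). The sums share libraries, and the high B-like values weigh in each r. Members and gate markers were left out of this search, so no member could be among these genes. Over the same 14 sums the other members' r with *Tsc22d3* ran from -0.41 for *Fkbp5* to 0.43 for *Ddit4*.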

How the data were processed

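The authors deposited the UMI counts of each gene and cell barcode, 1 library per genotype, not normalized. Per the submitters' processing notes they were made with Cell Ranger 2.1.1 on mm10. Tissue was digested for 30 min with collagenase D according to the paper, and for 1 h with collagenase and dispase according to the labels. The deposited counts hold 1278 WT and 1220 twi barcodes with 3749714 and 4807539 UMIs, of which 7 and 13 with more than 15% mitochondrial UMIs were removed.

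Classes were set by marker UMIs: at least 1 UMI of *Cd3* genes and of *Cd8* or *Cd4* for T cells, 2 of NK markers, and at least 0.25%, 2%, 0.5% and 0.1% of a barcode's UMIs for B, neutrophil, monocyte and C1q markers. *Ly6c2* was left out of the monocyte gate, since it was counted in most CD8 T cells. The members, gene lists and gates were chosen with earlier results of these data known, and the gate minima after the data had been seen. UMIs were summed per class and library and scaled to CPM. Intervals (scipy 1.17.1) cover counting error only: exact Poisson for CPM, exact conditional binomial for ratios, Clopper-Pearson for shares. Log2 ratios used a pseudocount of 0.5 UMIs, and a gene was compared with at least 25 UMIs over both libraries. A count of 0 allows up to 3 counts. On simulated counts the interval held the true ratio for 99% of 200 changed genes in effector-like CD8 T cells (6573 genes). In B-like cells (6102 genes) it did so for 94.5% of 200. The counts were drawn from the Poisson model that the interval assumes, without spread between cells or animals. They check the computation alone. Results for some single marker genes are left out here. All 8 members are named. Of the listed genes, those at least 1.5-fold apart in effector-like CD8 T cells with an interval that leaves out 1 could be named, and others were named after their values were seen. Alternatives changed the mitochondrial limit, gates, weighting, scale, depth, sex, minimum and pseudocount.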

Additional observations from a re-analysis of the deposited data

Results flagged for a closer look

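The ratio of *Tsc22d3*, twi over WT, lay on opposite sides of 1 in different classes with intervals of counting error that left out 1. It was 1.65 in naive-like CD8 T, 1.41 in B-like and 1.32 in neutrophil-like cells, against 0.488 in effector-like CD8 T and 0.534 in NK-like cells. The same held for *Sgk1*, at 2.95 in effector-like CD8 T and 3.31 in monocyte-like cells against 0.593 in B-like cells. The lower *Tsc22d3* in twi CD8 T cells had chosen the set, so it is given as a description. In neutrophil-like cells the median gene lay at a log2 ratio of 0.11. Neither granule stage of that class had a *Tsc22d3* interval that left out 1. Among cells with Y-linked UMIs and no *Xist*, the intervals of all the class ratios named here include 1, for both genes. Fewer cells entered there, which widens the intervals. Only the *Tsc22d3* ratio of effector-like CD8 T cells crossed 1, to 1.09 (0.724 to 1.66). The others kept their side of 1. Among them were *Tsc22d3* in NK-like cells at 0.663 (0.393 to 1.09) and *Sgk1* in effector-like CD8 T cells at 3.06 (0.986 to 12.6). With 1 library per genotype the difference between classes was not tested.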

How the results depend on the processing

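Of 432 values under other settings, 398 stayed within the counting interval of the value given. Such intervals are wide for genes with few UMIs, so this count says little about them. It says little about the members' medians too, for which no counting interval is given here. The median in effector-like CD8 T cells was counted as within although it went from 0.13 to -0.46 with no minimum of UMIs. The log2 ratio of *Fkbp5* in effector-like CD8 T cells stayed within although it went from -1.13 to -2.02 under strict gates. The sign of a log2 ratio changed in 37, of which 6 belonged to ratios of at least 1.5-fold with an interval that left out 1, and 31 to weaker ratios and to medians. As log2 ratios, *Tsc22d3* turned to -0.37 in naive-like CD8 T cells under strict gates (7 WT and 4 twi cells), and in effector-like CD8 T cells to 0.12 among cells with Y-linked UMIs and no *Xist* and to 0.97 among cells high in interferon genes (6 WT cells). *Ddit4* turned to -0.69 in naive-like cells with Y-linked UMIs. *Sgk1* turned to -0.79 in interferon-high effector-like cells, from 1 WT UMI, and to 0.23 in mature B-like cells, from 4 and 3 UMIs. Without the pseudocount the interferon-high *Sgk1* ratio was 0.858 (0.144 to 34.8), so the pseudocount set much of that -0.79. Among cells with Y-linked UMIs *Tsc22d3* was 0.33 in naive-like, 0.31 in B-like and 0.88 in monocyte-like cells, and the members' median was -0.69 in naive-like and 0.76 in neutrophil-like cells. The first of these medians was the value of *Ddit4* alone, from 4 WT UMIs and 1 twi UMI. The second was that of *Txnip*, from 33 and 6 UMIs. Over all naive-like CD8 T cells the members' median of 0.72 became 0.29 with a minimum of 10 UMIs and 0.23 with none. Granule-rich neutrophils gave -0.12 for *Tsc22d3*. Under strict gates its effector-like over naive-like ratio was 0.197 in WT and 0.131 in twi. Fewer cells entered each of the subsets, and the cause was not tested. In NK-like cells *Tsc22d3* stayed below 0 under all 10 alternatives (-0.91 to -0.58), and in B-like cells above 0 under all 12 (0.31 to 0.58). The splits by interferon genes, naive UMIs and stage, and the one within twi by *Xist*, were added once the data had been seen. No paired analysis was possible because each genotype had 1 library. Depth limits *Klf9*, *Per1* and *Fkbp5* most, and differences in them were mostly not detectable at this depth.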
